A study of Mus musculus with 3 samples.

Results

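The genes described here are 9 genes of the oligodendrocyte lineage and of myelin, chosen by name. They are the transcription factor genes Olig1, Olig2, Sox10, Nkx2-2 and Myrf and the myelin genes Mbp, Mog, Mag and Cnp, out of 21728 protein-coding genes on the autosomes and X. DNase-seq, in which DNase I cuts mark accessible DNA, was carried out on primary Müller cells, the radial glia of the retina, from 12 day old B6NCrl mice with the sexes pooled. All 3 biological replicates belong to 1 group, so the study holds no treatment, mutant or control. The replicates carry separate biosample labels but share a donor label, and spreads between them may be partly technical. The labels link a nuclei protocol for cultured cells and name neither a sort nor a time in culture.

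Oligodendrocytes wrap axons of the central nervous system in myelin. OLIG2 and NKX2-2 help to specify their precursors, SOX10 drives their differentiation together with OLIG1, and MYRF switches on the myelin genes in maturing cells. MBP compacts the myelin sheath, MOG lies on its outer surface, MAG faces the axon, and CNP is an enzyme of the uncompacted myelin channels. The mouse retina is normally free of myelin and of oligodendrocytes, since axons of ganglion cells are myelinated only after they leave the eye. Olig2 is also a gene of retinal progenitors, the cells from which Müller glia arise.

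A peak is a stretch of at most 150 bp that the authors called in 1 library, and its deposited score is a whole number between 1 and 150 whose meaning is not stated. A promoter peak lies within 1 kb of an annotated start site of the gene. A site found in all 3 replicates, with peaks that overlap by at least 1 bp, is called reproducible, and a gene with such a site within 1 kb of a start site is called open. Other sites are distal if they lie over 1 kb from every protein-coding start site, and each was assigned by distance to 1 gene, the owner of the closest start site, up to 100 kb away. That rule of distance does not show which gene a site acts on.

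Replicates 1, 2 and 3 had 300269, 281185 and 184544 peaks. All 12 Müller glia markers examined had a promoter peak in every replicate, as did all 6 astrocyte and all 6 neuronal markers. Of the 8 rod markers 3 had one in each replicate. Over all genes 74%, 73% and 70.8% had one in replicates 1, 2 and 3, so a promoter peak alone does not mark a cell type. Microglia and macrophage markers, 10 in number, stood apart by library: 10, 10 and 1 had a promoter peak in replicates 1, 2 and 3, and their summed promoter scores were 793, 758 and 39. Peaks come from bulk cells, so a site open in few cells cannot be told apart from a site cut weakly in many.

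The sites on which the account turns are shown first, with 1 exception each as 150 bp at the centre of the site in mm10, 5′ to 3′ on the strand of its gene. Capitals mark matches, on either strand, to short consensus motifs that are spelled out further on. The Olig1 promoter site at chr16:91269596-91269745, the strongest Olig1 distal site at chr16:91280716-91280865 and a second one centred 6722 bp upstream at chr16:91262976-91263125 are shown because they are among the strongest sites given to Olig1. They are followed by the start of Olig2 at chr16:91225256-91225405, where only replicate 3 had a peak, and by the strongest distal site nearest to Olig2 at chr16:91238836-91238985. These sequences are on the plus strand.
Olig1 promoter: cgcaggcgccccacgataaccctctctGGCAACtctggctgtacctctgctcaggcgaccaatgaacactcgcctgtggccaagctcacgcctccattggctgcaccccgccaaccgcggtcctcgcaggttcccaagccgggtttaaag
Olig1 distal site downstream: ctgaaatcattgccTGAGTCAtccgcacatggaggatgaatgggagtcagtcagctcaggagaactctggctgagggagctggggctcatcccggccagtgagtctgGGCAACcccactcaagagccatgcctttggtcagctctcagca
Olig1 distal site upstream: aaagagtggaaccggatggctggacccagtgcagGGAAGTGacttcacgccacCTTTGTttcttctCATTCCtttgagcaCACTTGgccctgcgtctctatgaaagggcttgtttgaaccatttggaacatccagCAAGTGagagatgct
Olig2 start: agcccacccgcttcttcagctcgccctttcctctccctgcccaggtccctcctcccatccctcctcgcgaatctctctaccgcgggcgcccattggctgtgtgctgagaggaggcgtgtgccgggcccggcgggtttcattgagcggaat
Olig2 distal site: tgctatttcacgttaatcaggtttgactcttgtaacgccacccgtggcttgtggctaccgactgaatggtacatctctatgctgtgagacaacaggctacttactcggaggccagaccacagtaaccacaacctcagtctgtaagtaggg

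The next sequences are on the minus strand, that of their genes. Sox10 and Mog are shown because their start sites had no peak while these distal sites were open in every replicate, at chr15:79193256-79193405, chr15:79177026-79177175 and chr17:37028696-37028845. The Nkx2-2 site at chr2:147194026-147194175 lies at a start of noncoding transcripts. The Myrf stretch at chr19:10240749-10240845 is the part of its promoter site before the first start site, 97 bp long.
Sox10 far upstream site: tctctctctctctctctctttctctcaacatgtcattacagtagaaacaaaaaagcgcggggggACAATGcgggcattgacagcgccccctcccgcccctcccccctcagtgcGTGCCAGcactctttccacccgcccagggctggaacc
Sox10 nearer upstream site: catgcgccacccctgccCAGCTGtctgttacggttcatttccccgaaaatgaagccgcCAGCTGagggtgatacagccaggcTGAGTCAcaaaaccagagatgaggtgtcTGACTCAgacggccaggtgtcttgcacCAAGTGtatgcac
Mog upstream site: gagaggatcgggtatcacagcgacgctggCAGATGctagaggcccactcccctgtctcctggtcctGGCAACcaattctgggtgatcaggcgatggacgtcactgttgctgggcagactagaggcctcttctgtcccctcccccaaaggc
Nkx2-2 noncoding start: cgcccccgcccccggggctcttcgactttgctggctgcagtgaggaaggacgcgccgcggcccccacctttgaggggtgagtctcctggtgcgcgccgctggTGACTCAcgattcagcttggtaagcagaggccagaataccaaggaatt
Myrf promoter: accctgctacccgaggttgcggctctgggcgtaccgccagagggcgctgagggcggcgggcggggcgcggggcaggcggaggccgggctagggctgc

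The promoters of Olig1, Nkx2-2, Myrf, Mbp and Cnp were open, and those of Sox10, Mog and Mag had no peak in any replicate. The 9 genes thus gave 5 open promoters (55.6%), beside 68.3% of all 21728 genes. Promoter peaks were found at 5, 6 and 6 of the 9 genes in replicates 1, 2 and 3, beside 74%, 73% and 70.8% of all genes. No peak in any replicate was the case for 3 of the 9 genes, beside 24.3% of all. Open and closed promoters stood in both groups of genes, the transcription factors and the myelin genes.

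**Figure D1:**
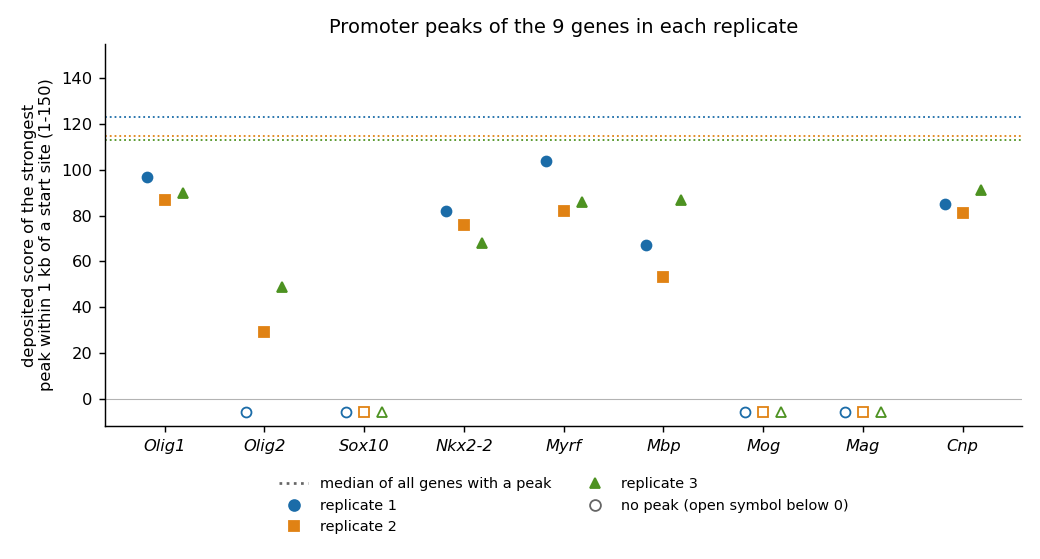
Deposited score (vertical axis, whole numbers up to 150) of the strongest peak within 1 kb of a start site for each of the 9 genes, with 1 symbol per replicate and open symbols below 0 where there was no peak. Dotted lines are the medians of all genes with a peak, 123, 115 and 113 in replicates 1, 2 and 3, and every filled symbol lies below them.

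Among the transcription factor genes Olig1 and Myrf had the strongest promoter peaks. Olig1, a single-exon gene on chromosome 16 from 91269772 to 91271933 (mm10, plus strand), had promoter scores of 97, 87 and 90 in replicates 1, 2 and 3. Its promoter site, printed above, ends 27 bp before the start site. Reproducible sites continued into the gene: with the promoter site 5 were found up to the end of Olig1, and those inside the gene scored 22 to 52. Myrf, on chromosome 19 from 10208272 to 10240748 (minus strand), had scores of 104, 82 and 86 at its main start, which 5 of its 6 annotated transcripts use. A second start, at 10217528, with 1 protein-coding transcript, had no peak within 1 kb, and the nearest peak lay 1688 bp away.

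Olig2 and Nkx2-2 were less accessible at their coding starts. Olig2 lies on chromosome 16 from 91225457 to 91228677 (plus strand), 44315 bp from the start of Olig1. It had no promoter peak in replicate 1, and its strongest ones in replicates 2 and 3 scored 29 and 49. The peak of 49, printed above, lay 52 bp before the start site and was found in replicate 3 alone. The peak of 29, 492 bp from the start site, overlapped a second replicate 3 peak of 48. Olig2 was therefore not called open with all replicates, and was called open without replicate 1.

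Nkx2-2, on chromosome 2 from 147177546 to 147194243 (minus strand), was open at 1 of its start clusters. Scores of 82, 76 and 68 were found at the upstream start at 147194242 to 147194243, used by 2 transcripts annotated as noncoding. At the start sites of its 2 protein-coding transcripts, 147186101 to 147186404, a peak of 40 was found in replicate 1 alone. When only start sites of protein-coding transcripts were counted, Nkx2-2 was no longer open and 4 of the 9 genes were.

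Sox10 had no peak at any of its start sites. It lies on chromosome 15 from 79154908 to 79165240 (minus strand), and the peaks nearest to its 4 start sites were 3729, 3729 and 3769 bp away in replicates 1, 2 and 3, at scores of 51, 47 and 46. They form an intronic site of the gene, at 79160556 to 79160745.

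Of the myelin genes Cnp had the most even promoter signal. Cnp, on chromosome 11 from 100574904 to 100591729 (plus strand), scored 85, 81 and 91 at a site from 100574896 to 100575065 that overlaps its first start. A second promoter peak at 100575216 to 100575365 was found in replicates 1 and 2, with scores of 77 and 60, and 2 weaker ones, of 38 and 28, in replicate 3 alone.

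Mbp was open at its upstream start and had no peak at the start cluster that most of its transcripts use. The gene lies on chromosome 18 from 82475146 to 82585637 (plus strand). Transcripts from the upstream start are known as golli, a form also made outside myelinating cells, and those from the second start cluster, 79324 bp further on, encode the classic myelin proteins. At the golli start the scores were 67, 53 and 87 in replicates 1, 2 and 3, highest in replicate 3, which also had weaker peaks of 37 and 50 within the next 1 kb. The second cluster, 82554470 to 82554580, with 11 protein-coding transcripts, had no peak within 1 kb in any replicate. The nearest peaks lay 2736, 2716 and 2696 bp from it and scored 91, 71 and 75.

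Mog and Mag had no promoter peak. Mog lies on chromosome 17 from 37010743 to 37023398 and Mag on chromosome 7 from 30899176 to 30914873, both on the minus strand. The peaks nearest to a Mog start were 3138, 4894 and 4894 bp away in replicates 1, 2 and 3 and scored 34, 55 and 24. At Mag they were 5263, 9963 and 5303 bp away and scored 34, 25 and 32, so that no strong peak stood near this gene in any library.

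The order of the promoter scores was Olig1 (91.3 ± 5.13, SD, n = 3), Myrf (90.7 ± 11.7), Cnp (85.7 ± 5.03), Nkx2-2 (75.3 ± 7.02) and Mbp (69.0 ± 17.1), followed by Olig2 with its 2 peaks. Among the genes with a peak in every replicate, neighbours in this order differed by less than the larger of their SDs, apart from the step between Cnp and Nkx2-2. Olig2 stood lower, and below Mbp in replicates 2 and 3. The score is not known to be comparable between replicates, and the rank within each library is the safer measure. Among genes with a promoter peak, Olig1 stood at percentile 28.7, 29.1 and 28.7 in replicates 1, 2 and 3. Myrf stood at 32.6, 26.5 and 26.2, Cnp at 22.8, 26.0 and 29.4, Nkx2-2 at 21.4, 23.5 and 17.3, and Mbp at 15.3, 13.5 and 26.8. All 6 genes with a promoter peak thus stood below the median of such genes in each replicate where they had one.

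Hotspots, the wider regions that the authors called with a −log10 q of at most 100, gave a like picture. The median over all hotspots was 100 in replicate 1, 6 in replicate 2 and 5.15 in replicate 3, so a value of 100 is typical in replicate 1. Olig1, Myrf and Cnp promoters reached 100 in every replicate. At Mbp the values were 4.80, 2.41 and 100 in replicates 1, 2 and 3, and at Nkx2-2 they were 100, 100 and 3.57. Replicate 1 had no hotspot at Olig2, where the values were 3.47 in replicate 2 and 3.75 in replicate 3. No hotspot lay within 1 kb of a start of Sox10, Mog or Mag.

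Distal sites found in all replicates were present near 8 of the 9 genes, closed promoters included. The 9 genes were given 47 reproducible distal sites, and at least 1 site was the case for 8 of them, beside 67.6% of all genes. More sites than the median gene, which had 2, were found at 5 of the 9, beside 41.8% of all genes. Without replicate 3 the number was 72, since 25 further regions were found in replicates 1 and 2 alone. Peaks of single replicates numbered 95, 82 and 65 in replicates 1, 2 and 3 (80.7 ± 15.0, SD, n = 3), or 31.7, 29.2 and 35.3 per 100000 peaks of the replicate.

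**Figure D2:**
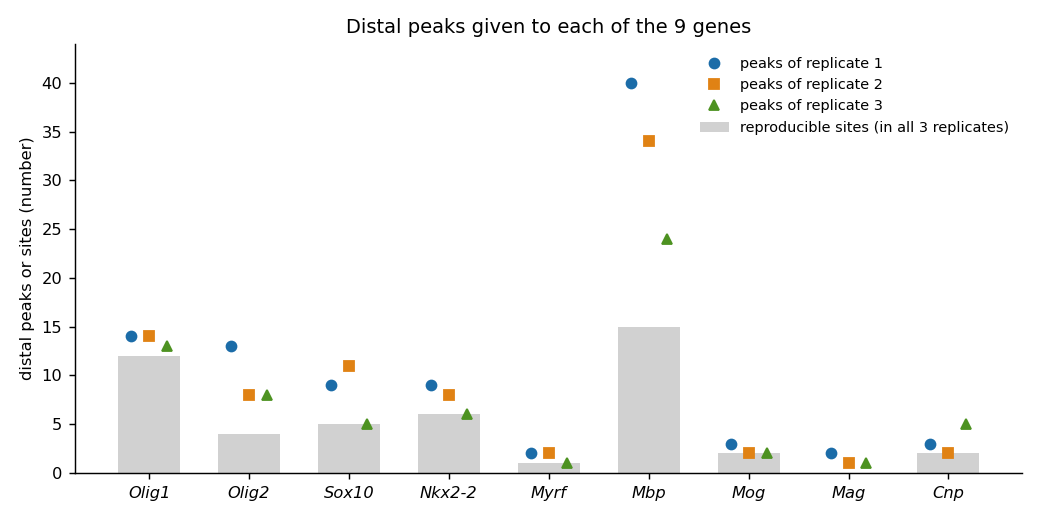
Number of distal peaks given to each of the 9 genes (vertical axis) in replicates 1, 2 and 3 (symbols), with bars for the sites found in all 3. Mbp leads with 40, 34 and 24 peaks and 15 reproducible sites, and Olig1 follows with 14, 14 and 13 peaks and 12 reproducible sites.

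Mbp had 15 reproducible distal sites, Olig1 12, Nkx2-2 6, Sox10 5, Olig2 4, Mog and Cnp 2 each, Myrf 1 and Mag 0. Without replicate 3 Mbp had 29, Olig2 8, Myrf 2 and Mag 1, and without replicate 2 Mag also had 1. These counts depend on how much genome lies nearest to a gene. Per 100 kb of such genome Olig1 had 16.7 sites, Sox10 13.6, Cnp 13.2, Mog 10.8 and Mbp 10.5, while Olig2 had 4.69, Nkx2-2 4.35 and Myrf 3.04. The median over 18607 genes given at least 10 kb was 4.62. Olig1 stood at percentile 95.4 of those genes, Sox10 at 91.5, Cnp at 91.0, Mog at 85.2, Mbp at 84.2 and Olig2 at 50.5. The order depended on the peaks used. With the strongest 50% of peaks Olig1 fell to 4.19 sites per 100 kb, below Mbp at 10.5, Sox10 at 8.16, Cnp at 6.61 and Mog at 5.38, where the median gene had 1.33. Without replicate 3 Mbp came first at 20.3, before Olig1 at 19.5, and Olig2 had 9.38, where the median gene had 8.12. Cnp came first without replicate 2, at 19.8, and with equal numbers of peaks from each replicate, at 13.2. It fell to 6.61, from 1 site, with an overlap of at least 50% of the shorter peak (percentile 67.6) and with hotspots (percentile 67.5). Without replicate 3 Cnp stood at percentile 72.8 and Mog at 63.0, so their ranks rest on few sites.

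The Olig2 and Olig1 loci adjoin, and their reproducible distal sites lay mostly on the Olig1 side. Counting regions found in any replicate, each gene was given 15. Of the reproducible distal sites given to the pair, 3 lay upstream of Olig2, 5 between the start sites and 8 downstream of the Olig1 start. Those downstream include sites at 91271176 to 91271365 and 91271616 to 91271785, in the untranslated part of Olig1 and close to its promoter sites. Regions found in replicates 1 and 2 alone numbered 4 more at Olig2, all upstream of it, and 2 more at Olig1, both downstream. The strongest, printed above, was centred 11018 bp downstream of the Olig1 start and scored 132, 130 and 119 in replicates 1, 2 and 3. It lies in an intron of Gm15966, a long noncoding RNA gene that holds 6 of these sites. A site at 91262936 to 91263165, upstream of Olig1, scored 117, 114 and 69, and another in Gm15966, 44548 bp downstream, scored 113, 90 and 62. Nearest to Olig2, a site centred 13453 bp downstream of its start, at 91238816 to 91239005, scored 89, 79 and 70. The other 3 reproducible sites of Olig2 lay more than 50 kb upstream and scored between 27 and 58.

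**Figure D3:**
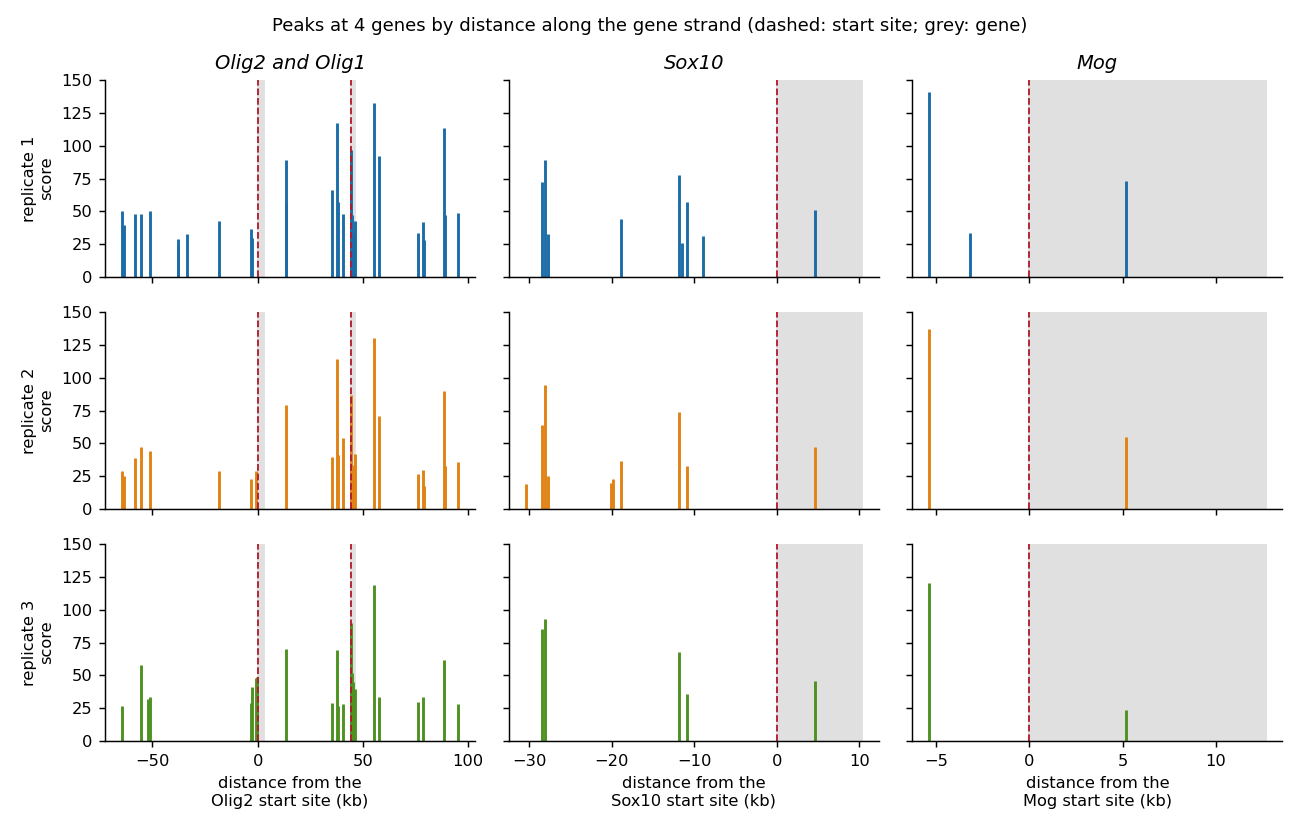
Deposited peak scores (vertical axes) at Olig2 and Olig1, Sox10 and Mog in replicates 1, 2 and 3 (rows), by distance in kb from the start site along the strand of the gene (horizontal axes, from the outermost start for Sox10 and Mog). Dashed lines are start sites and grey bands are genes; Sox10 and Mog have their strongest peaks upstream, at 89, 94 and 93 and at 141, 137 and 120, and none at the start.

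Upstream of the closed Sox10 start, 4 reproducible sites lay in an intron of Gm10863, a noncoding gene that starts 801 bp from Sox10 on the other strand. The strongest, at 79193236 to 79193425 and centred 28090 bp upstream, scored 89, 94 and 93. Its neighbour at 79193616 to 79193845 scored 72, 64 and 85, and a site at 79177016 to 79177185, 11860 bp upstream, scored 78, 74 and 68. All 3 scored at least 64 in every replicate. Of the 12 regions given to Sox10, 5 were found in all replicates, 2 in replicates 1 and 2, 2 in replicate 1 alone and 3 in replicate 2 alone.

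The site with the highest score in replicates 1 and 2 among the 47 lay upstream of Mog. It spans 37028676 to 37028865, is intergenic, is centred 5372 bp upstream of the start of the gene, and scored 141, 137 and 120. In no replicate did it rank below percentile 95.5 of all peaks. The other reproducible site of Mog, in an intron at 37018156 to 37018305, scored 73, 55 and 24. Mag had no reproducible distal site, and its 2 regions scored at most 34.

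At Nkx2-2 the strongest distal sites lay downstream, at the far end of the gene. Sites at 147177796 to 147177965, 147178196 to 147178385 and 147178796 to 147179025 scored 89, 74 and 68, then 75, 59 and 73, then 70, 54 and 49 in replicates 1, 2 and 3. The first overlaps a coding exon of Nkx2-2 and the others lie in an intron. The single reproducible distal site of Myrf, in an intron at 10219216 to 10219365, scored 56, 43 and 29. At Cnp a site at 100570576 to 100570745 scored 96, 66 and 50 and a second at 100571236 to 100571485 scored 53, 49 and 41. Both lie in introns of the neighbouring gene Ttc25.

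Mbp held the largest number of distal sites, most of them between its golli start and its second start cluster. That stretch is 79324 bp long and 143210 bp of genome in all were given to Mbp, so much of its space lies there. Of its 46 distal regions 32 lay there, 6 before the golli start and 8 after the second cluster, with 10, 2 and 3 reproducible sites. Intronic sites at 82518116 to 82518285, 82522776 to 82522925 and 82545656 to 82545825 were the strongest. The first scored 135, 123 and 122 in replicates 1, 2 and 3, the next 124, 122 and 107, and the last 120, 119 and 137. The last of these lies 8645 bp before the second start cluster, which had no peak, and a site at 82549496 to 82549645, with scores of 105, 94 and 85, lies nearer to it at 4825 bp.

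**Figure D4:**
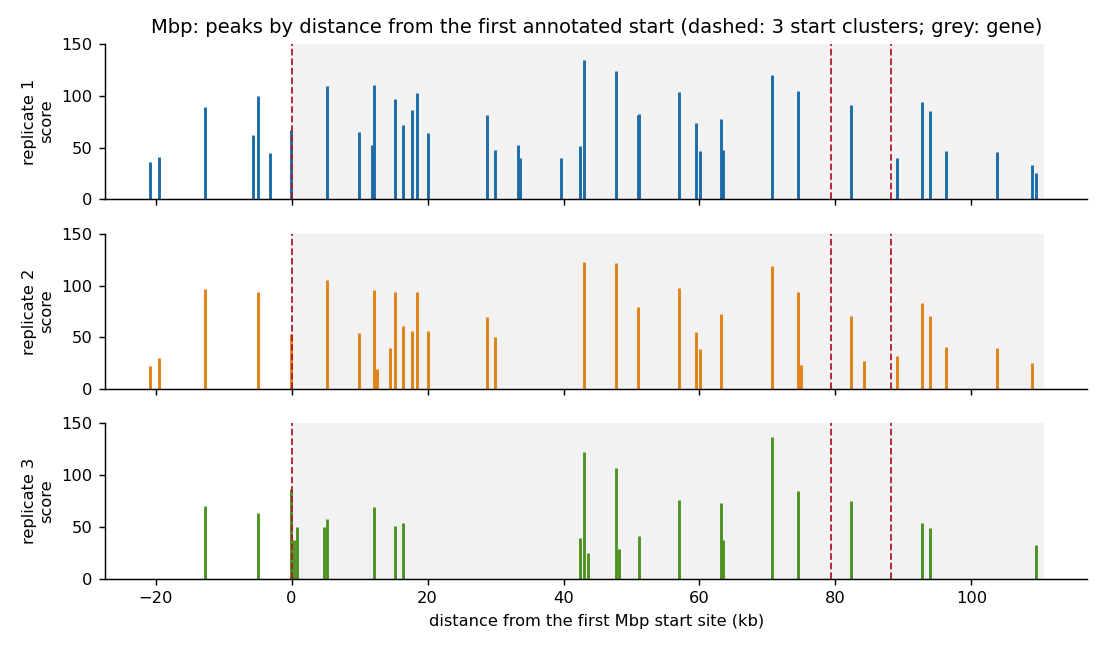
Deposited peak scores (vertical axes) across Mbp in replicates 1, 2 and 3 (rows), by distance in kb from the first start site (horizontal axis). Dashed lines are the 3 start clusters and the grey band is the gene; several peaks in the first 40 kb that replicates 1 and 2 share, up to 103 and 94, are missing from replicate 3, while the peaks of 135, 123 and 122 and of 120, 119 and 137 further on are in all 3.

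The number of distal peaks at Mbp was lowest in replicate 3, which also had the fewest peaks genome-wide, 184544 beside 300269 and 281185 in replicates 1 and 2. Distal peaks there numbered 40, 34 and 24 in replicates 1, 2 and 3 (32.7 ± 8.08, SD, n = 3), and 14 of the 46 regions (30.4%) were in replicates 1 and 2 alone. Among all distal regions that share was 27.3%, so the count at Mbp is near that of the genome. The regions missing from replicate 3 included strong ones, picked out after their values were seen. A region at 82493596 to 82493745 scored 103 and 94 in replicates 1 and 2, and 4 of the 14 (28.6%) scored at least 80 in replicate 1, beside 6.95% of such regions over all genes. The 4 scored 103, 86, 81 and 81, so the share hangs on the cut. High scores were also common at the reproducible Mbp sites, but that class scores higher over all genes. There its median in replicate 1 was 78, beside 46 for regions in replicates 1 and 2 alone. Why some of the Mbp regions missing from replicate 3 scored high was not tested. At the other 8 genes 11 of 64 regions were in replicates 1 and 2 alone (17.2%), and none of those reached 80. The promoter signal of the microglia and macrophage markers was also missing from replicate 3 for 9 of the 10 genes, and its part in the Mbp regions was not tested.

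The median score of the 47 reproducible distal sites was close to that of all genes in replicates 1 and 2. The medians were 78, 66 and 54 in replicates 1, 2 and 3, beside 78, 64 and 45 for all 87488 reproducible distal sites. The median of the 47 pools unlike genes. In replicate 1 the 15 Mbp sites scored 72 to 135. Sites of the other genes scored 27 to 141 there, and most of them scored below 78. The 47 sites lay in introns of protein-coding genes in 19 cases, in introns of noncoding genes in 12 and between genes in 11. The remaining ones were 3 in untranslated exon parts, 1 in a coding exon and 1 in an exon of a noncoding gene. Locations were not counted over all distal sites, so no preference can be read from these numbers.

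The reproducible promoter sites of the 5 open genes were rich in CpG. These 7 sites, several of them at Olig1 and none at the closed promoters, had a median of 17 CpG dinucleotides in 150 bp. The median over all 27930 reproducible promoter sites was 10. GC content was 68.7%, beside 62.7%. The distal sites had a median GC content of 54.7%, beside 49.3%. The Olig2 start, printed above, had 12 CpG and 66% GC in the 150 bp where replicate 3 alone had a peak.

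Motifs were searched on both strands in the central 150 bp, and a match does not show that a factor binds. The SOX core, taken as ACAAAG or as either of the variants ACAATG and also ACAATA, was found in 7 of the 47 distal sites (14.9%), beside 30.4% of all reproducible distal sites. One of the 7 is the far upstream site of Sox10, where ACAATG is in capitals. No site held a pair of SOX cores with at most 10 bp between them, beside 1.21% of all. The E-box CATCTG, a form that bHLH factors such as OLIG2 can bind, was in 12 sites (25.5%, beside 14.4%) and the E-box CAGCTG in 8 (17.0%, beside 13.8%). CAGCTG occurs 2 times in the nearer upstream site of Sox10, and CATCTG, read on the other strand, in the upstream site of Mog.

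Other motifs gave shares on both sides of those of the genome. The TEAD motif CATTCC was in 13 of 47 sites (27.7%, beside 19.2%), the RFX motif GTTGCC in 6 (12.8%, beside 6.85%) and the MYRF motif CTGGCAC in 5 (10.6%, beside 4.84%). The AP-1 motif TGACTCA, or its other form TGAGTCA, was in 8 (17.0%, beside 16.7%) and the NFI motif TTGGCA in 6 (12.8%, beside 17.3%). The NKX2 motif CACTTG was in 4 (8.51%, beside 10.1%), the homeobox motif TAATTA in 3 (6.38%, beside 6.02%) and the OTX motif TAATCC in 1 (2.13%, beside 3.92%). The ETS motif GGAAGTG and the CTCF motif were in 2 sites each (4.26%, beside 4.34% and 4.41%). With 47 sites a difference of a few matches moves these shares, and no test was made. The RFX motif is in capitals in the Olig1 promoter, in the strong site downstream of Olig1 and in the upstream site of Mog, and AP-1 matches stand in that Olig1 site, in the nearer upstream site of Sox10 and at the noncoding start of Nkx2-2. The far upstream site of Sox10 also holds a MYRF match, and the upstream site of Olig1 holds matches of SOX, TEAD, NKX2 and ETS.

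Among 34 further genes of the lineage 26 promoters were open (76.5%, beside 68.3% of all genes). Promoter peaks were present at 30, 30 and 28 of them in replicates 1, 2 and 3 (88.2%, 88.2% and 82.4%). Over all genes the shares were 74%, 73% and 70.8%. Their median scores, where there was a peak, were 88.0, 74.5 and 82.5, below the 123, 115 and 113 of all genes with one. The strongest promoter was that of Tcf7l2, a transcription factor of Wnt signalling, at 135, 128 and 140. Sox6 and Sox8, SOX factors of precursors and glia, had 130, 121 and 132 and 128, 120 and 128. Gpr37, a receptor of oligodendrocytes and other brain cells, had 121, 123 and 130, and Zfp536, a zinc finger gene of neural cells, had 121, 112 and 112.

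**Figure D5:**
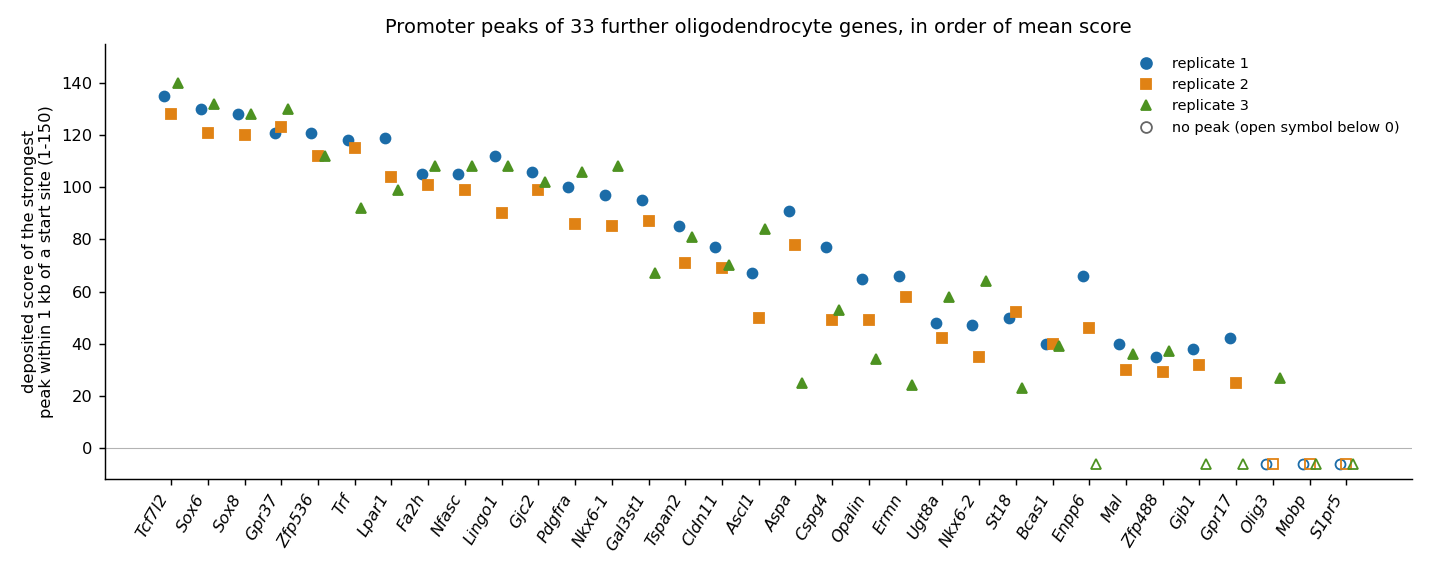
Deposited score (vertical axis) of the strongest peak within 1 kb of a start site for 33 further oligodendrocyte genes, ordered by mean score, with 1 symbol per replicate and open symbols below 0 where there was no peak. Scores run from 135, 128 and 140 at Tcf7l2 to no peak at Mobp and S1pr5.

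No promoter peak was found in any replicate at Mobp, a myelin protein gene, or at S1pr5, a sphingosine phosphate receptor of oligodendrocytes. Mobp nevertheless had 10 reproducible distal sites, while S1pr5 had none. Pdgfra and Cspg4, markers of precursors, had promoter peaks in all replicates. Pdgfra, the receptor for platelet-derived growth factor, scored 100, 86 and 106, and Cspg4, which encodes the NG2 proteoglycan, 77, 49 and 53. Promoter peaks were missing from replicate 3, but present in both other libraries, at 3 of the 34 genes (8.82%), beside 3.03% of all genes. These were Enpp6 at 66 and 46, Gjb1 at 38 and 32 and Gpr17 at 42 and 25. Opalin and Ermn, genes of mature oligodendrocytes, had promoter scores of 65, 49 and 34 and of 66, 58 and 24, lowest in replicate 3. Aspa and St18 were among further genes with the lowest score there. Other genes of the list went the other way, with the highest score in replicate 3. Among them were Ugt8a at 48, 42 and 58, Fa2h at 105, 101 and 108 and Nkx6-2 at 47, 35 and 64. The Ugt8a peaks did not form a reproducible site, and scores are not known to be comparable between replicates. The raw scores of the list thus showed no common direction in replicate 3. Pdgfra, Cspg4, Enpp6, Gjb1, Gpr17, Opalin, Ermn, Aspa, St18, Ugt8a, Fa2h and Nkx6-2 were named after their values were seen.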

How the data were processed

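DNase-seq of 3 Müller cell libraries was analysed from the lists the authors deposited for each replicate. Peaks carry a deposited score from 1 to 150, which was used to rank peaks within a replicate and described, not tested. Hotspots carry a deposited −log10 q, capped at 100. Per the deposited file descriptions, both lists were derived from the filtered mm10 alignments of 1 library plus 1 further file. The aligner and the peak caller were not given in the sources used here, and read depth is unknown. From replicates 1, 2 and 3, 21, 20 and 23 peaks that repeated a position were removed. Start sites of all annotated transcripts of 21728 protein-coding genes came from GENCODE M21. Sequences were read from the RefSeq GRCm38.p6 genome, the assembly of mm10, with pysam 0.24.0 under Python 3.11.15. Merging and assignment were checked on simulated peaks at genes with a single start site and no near neighbour. The check does not cover genes with several start clusters or crowded loci. The design holds 1 group, so no test between groups was made. Member genes, lists and motifs were chosen with earlier results of these data known, and the CTCF motif was added after the files were seen. The rule for naming took all 9 genes, their leading sites, the 5 highest companion genes and those without a peak. Values of 1 companion gene are counted but not reported here, so not every gene that the rule took is named.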

Additional observations from a re-analysis of the deposited data

How the results depend on the processing

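The number of open promoters among the 9 genes was 5 under each alternative except 4 with start sites of protein-coding transcripts only, where Nkx2-2 was lost, and 6 without replicate 1, where Olig2 was gained. Leaving out single replicates gave 5 to 6 open promoters, 47 to 72 distal sites and 27 to 30 open companion genes. With the strongest 50% of peaks the distal sites of the 9 genes fell to 27, against 47 with all peaks. The other alternatives gave 39 to 55 distal sites and 18 to 29 open companion genes, against 47 and 26. These were windows of 500 or 2500 bp, an overlap of at least 50% of the shorter peak, equal peak numbers, the strongest 50% of peaks (companion genes only), hotspots, 2 other sets of start sites and, for distal sites, 50 kb as the largest distance. The larger share of open promoters among companion genes than among all genes did not hold throughout. With the strongest 50% of peaks 18 of the 34 were open, a smaller share than the 62% of all genes. With only the outermost 5′ end of each gene 21 of the 34 were open, again a smaller share than the 63.4% of all genes. Under the remaining alternatives the companion share stayed the larger one. Sox10, Mog and Mag were open in 0 of the 11 alternatives tried, and Olig1, Myrf, Mbp and Cnp in all 11. No paired analysis was possible because all samples belong to 1 group. Counts of peaks move with read depth, which is unknown, and replicate 3 has the fewest.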
